A study of Arabidopsis thaliana with 6 samples.

Results

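UBP15, UBP21 and UBP22 encode ubiquitin-specific proteases, and the transcripts of all 3 were more abundant on each boric acid array than on any control array. The array's annotation assigns 1 probe set to each of them. They are 3 of 12 genes named UBP plus a number with a named probe set here, out of 13355 named genes in all. The other 9, namely UBP16, UBP18, UBP19, UBP20, UBP23, UBP24, UBP25, UBP26 and UBP27, served as the family background. UBP15, UBP21 and UBP22 were singled out with the comparison of boric acid with control already known. Their differences are therefore described below without a test, and nothing is read from their size.

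Roots of Arabidopsis thaliana seedlings were profiled on 6 Affymetrix ATH1 arrays, 3 per group. In the boric acid group, 5-day-old seedlings stood for 12 h on Murashige-Skoog medium with 5 mM boric acid, a dose at which boron is toxic. In the control group they were on the same medium without that addition, and the comparison asks which root transcripts differ early under excess boron. The seed stock and the number of plants per sample are not given in the sources used here. The titles call the samples biological replicates 1 to 3. The growth text attached to the control samples repeats the transfer to boric acid, so the groups were taken from the titles and the treatment field.

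Ubiquitin is a small protein that is joined to other proteins and often marks them for breakdown by the proteasome. Deubiquitinases cut it off again, which can rescue a protein, change its activity or return ubiquitin for reuse, and the ubiquitin-specific proteases are the largest class of these enzymes in plants. In Arabidopsis, UBP15 promotes cell proliferation and organ size and is itself a target of the peptidase DA1, which limits growth. UBP22 is the enzyme of the deubiquitination module of SAGA, a transcription coactivator complex, and removes ubiquitin from histone H2B. No role is given here for UBP21.

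Values are the log2 expression values that the authors deposited, so a step of 1 is a doubling of signal. The highest value of a negative control, a probe set for no plant gene, was 0.217, and UBP15, UBP21 and UBP22 lay above that on all 6 arrays. That bar is low, as 10775 of 13355 genes averaged above it. UBP21 in control, at 0.82 to 0.99, lay below the array medians over probe sets, which were 1.45 to 1.49. A change is boric acid minus control, with the standard error (SE) of a linear model fitted to all 22746 probe sets in limma. Roots hold many cell types, and fewer cells of a type cannot be told apart from less RNA per cell.

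UBP22, the SAGA enzyme, had the largest difference of the 12 UBP genes. On the boric acid arrays numbered 1, 2 and 3 it was at 3.01, 3.25 and 3.21 on the log2 scale, and on the control arrays at 2.65, 1.71 and 1.68. The groups did not overlap, but control 1 stood well above the other control arrays and only 0.36 below the lowest boric acid array. Boric acid arrays averaged 3.16 ± 0.13 (SD, n = 3) and controls 2.02 ± 0.55 (SD, n = 3), a change of 1.14 ± 0.27 (SE) or 2.21-fold. Control 1 thus accounts for most of the spread of the control group, and without it the change was 1.46 ± 0.13 (SE). Leaving out each of the 6 arrays in turn gave changes between 0.97 and 1.46.

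UBP15, the gene of cell proliferation and organ size, followed with an uneven difference. Its log2 values were 2.39, 2.27 and 2.98 on boric acid 1, 2 and 3, and 1.50, 1.78 and 1.86 on control 1, 2 and 3. Boric acid 3 was the highest array, the other boric acid arrays lay close together, and the groups were 0.41 apart at their nearest values. The means were 2.55 ± 0.38 (SD, n = 3) and 1.71 ± 0.19 (SD, n = 3), which gives a change of 0.83 ± 0.21 (SE) or 1.78-fold. With any 1 array left out the change lay between 0.62 and 0.97, and the lowest value came without boric acid 3.

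UBP21 had the smallest difference of the 3 and the most even one. It was at 1.42, 1.54 and 1.48 on the boric acid arrays and at 0.82, 0.99 and 0.87 on the control arrays, in the order of their numbers. No array of either group stood apart, and the nearest values of the groups were 0.43 apart. The means of 1.48 ± 0.06 (SD, n = 3) and 0.89 ± 0.09 (SD, n = 3) differed by 0.59 ± 0.10 (SE), a 1.50-fold difference. Its change stayed between 0.55 and 0.64 with any 1 array left out.

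**Figure D1:**
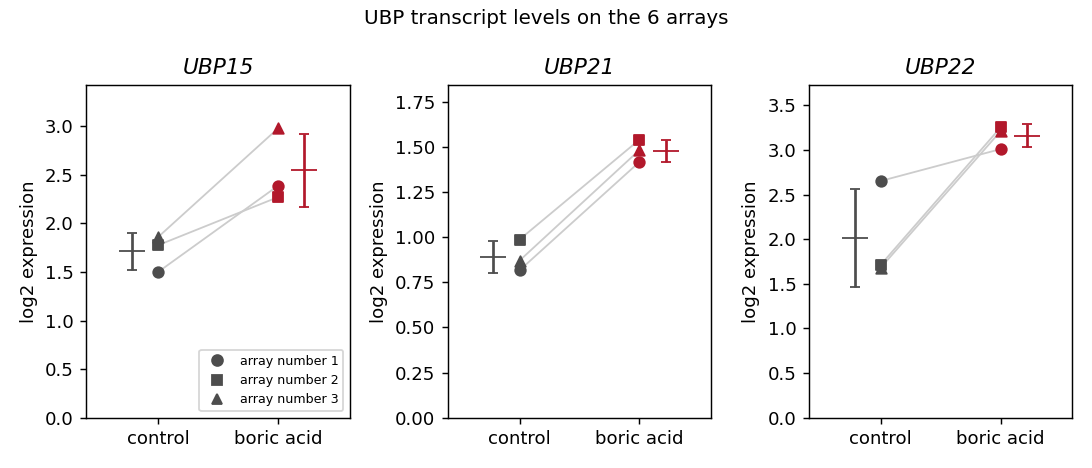
Log2 expression of UBP15, UBP21 and UBP22 (vertical axes) on the control and boric acid arrays (horizontal axes). Symbols give the array number, grey lines join arrays of the same number, and the bars beside the points are the mean and SD of 3 arrays. All boric acid points lie above all control points, and control 1 lies at 2.65 for UBP22 against 1.71 and 1.68 for the other controls.

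Groups that do not overlap, with boric acid higher, are common in these data: 10.1% of the 13355 genes showed that pattern. With a change at least that of the gene in question as well, the share was 1.18% for UBP22, 2.30% for UBP15 and 4.35% for UBP21. Because these genes were picked on this comparison, the shares only place them among the other genes.

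Arrays of the same number deviated together from their group means, clearly for the numbers 1 and 3 but not for 2 (see the processing notes). Each boric acid array was therefore also set against the control array of its number. For UBP21 the differences were 0.60, 0.55 and 0.61 for the numbers 1, 2 and 3, nearly equal. For UBP15 they were 0.89, 0.49 and 1.12. For UBP22 they were 0.36, 1.54 and 1.53, so the arrays numbered 1 gave a much smaller difference than the others. Separate groups make every pair of these 3 genes higher, so only the background genes can be set against the 20.0% of all genes with that pattern. Of those 9, it was seen in 4, UBP18, UBP19, UBP25 and UBP27.

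**Figure D2:**
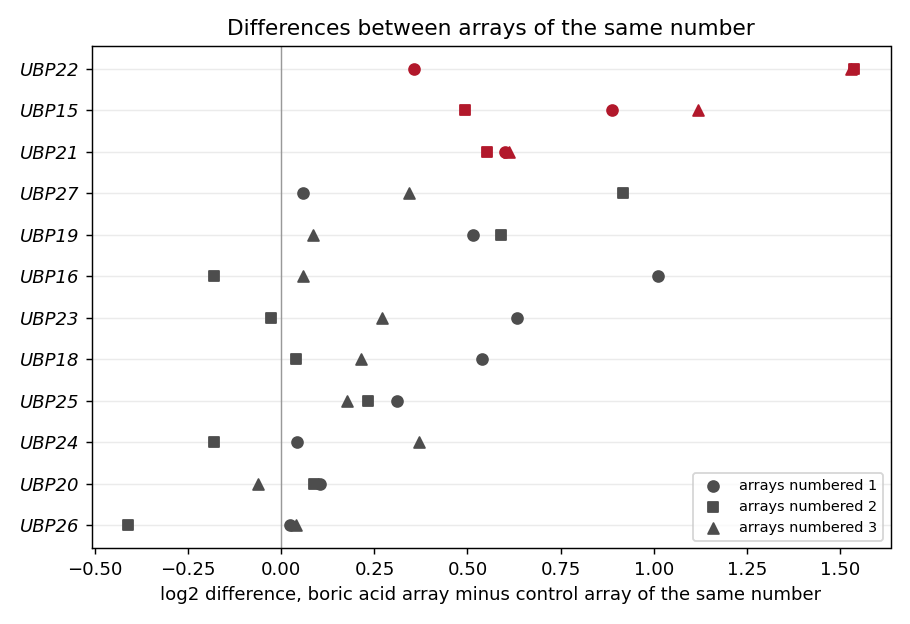
Difference in log2 expression between the boric acid and the control array of the same number (horizontal axis) for the 12 measured UBP genes (vertical axis), ordered by mean change. UBP15, UBP21 and UBP22 are red, the 9 others grey, and symbols give the number; UBP21 has the tightest points among the red ones, from 0.55 to 0.61, while UBP22 has its number 1 point at 0.36 and the others near 1.5.

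None of the 9 background genes passed the threshold of an adjusted p of 0.05 (limma, Benjamini-Hochberg over all probe sets), and none had an unadjusted p under 0.05. Of all genes 2.71% passed, or 362 of 13355, and 14.9% had an unadjusted p under 0.05. With the replicate number as a block again none of the 9 passed, against 7.84% of all genes. In that fit 1 of the 9, UBP19, had an unadjusted p under 0.05. The share of all genes at that cutoff was not counted with the block, so nothing is read from this. Their changes ran from -0.12 to 0.44, below that of UBP21. Of the 9, 8 were above 0, also after quantile normalization, against 6195 of 13355 genes. Their median was 0.26, against -0.02 over all genes. With any 1 array left out 7 or 8 were above 0, and the median lay between 0.15, without control 1, and 0.29, without control 2. Whether UBP15, UBP21 and UBP22 differ from the rest of the family was not tested, since their change chose them.

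**Figure D3:**
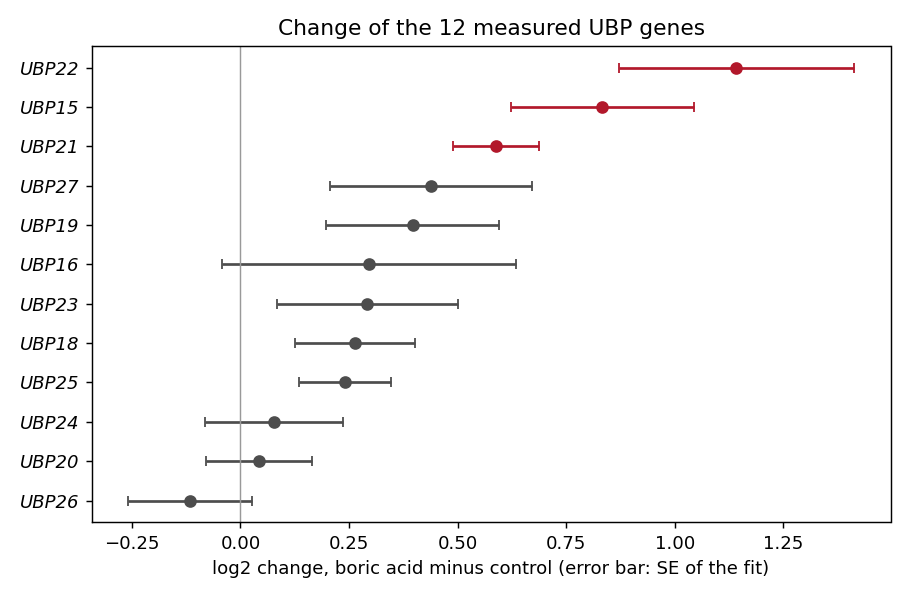
Log2 change, boric acid minus control (horizontal axis), of the 12 measured UBP genes (vertical axis). Points are the changes and bars the SE of the fit; UBP22, UBP15 and UBP21, in red, lie at 1.14, 0.83 and 0.59, and the 9 others, in grey, between -0.12 and 0.44.

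UBP16, UBP18 and UBP19 belong with UBP15 to the group of these proteases that carry a zinc finger of the MYND type. UBP19, needed for embryo development, had a change of 0.40 ± 0.20 (SE, adjusted p = 0.405 in limma). UBP16, which takes part in salt tolerance, had one of 0.30 ± 0.34 (adjusted p = 0.762 in limma), and UBP18 one of 0.26 ± 0.14 (adjusted p = 0.428 in limma). UBP16 was at 2.72, 2.76 and 2.98 on the boric acid arrays and at 1.70, 2.94 and 2.92 on the control arrays. Control 1 stood far below the other 5 arrays, and without it the change was -0.11. Without control 1 the change of UBP18 was 0.15 and that of UBP19 0.23, and without boric acid 2 that of UBP19 was 0.25, so their size rested partly on single arrays. All 4 genes of this group, UBP15 included, had their lowest value of the 6 arrays on control 1.

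UBP26 also removes ubiquitin from histone H2B and takes part in gene silencing. It was at 0.99, 1.00 and 1.19 on the boric acid arrays and at 0.97, 1.41 and 1.15 on the controls. The groups overlapped, and its change of -0.12 ± 0.14 (SE, adjusted p = 0.780 in limma) was the only one below 0 in the family. That sign rested on control 2, without which the change was 0.00, and the pairs numbered 1, 2 and 3 differed by 0.02, -0.41 and 0.04. The difference from UBP22, the other measured enzyme known to act on H2B, was not tested.

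UBP27, a protein of the mitochondrial outer membrane that affects the shape of mitochondria, had the largest change of the 9, 0.44 ± 0.23 (SE, adjusted p = 0.436 in limma). Its boric acid arrays lay close together at 2.69, 2.63 and 2.71, while its controls spread over 2.63, 1.71 and 2.37. As for UBP22, control 1 was the highest control, and without it the change of UBP27 was 0.64 (adjusted p = 0.153 in limma). Without control 2, its lowest array, the change was only 0.18.

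UBP25 was the only background gene whose groups did not overlap, 1 of 9 against 10.1% of all genes. It was at 3.01, 3.14 and 3.01 in boric acid and 2.69, 2.91 and 2.83 in control, with a change of 0.24 ± 0.11 (SE, adjusted p = 0.332 in limma). UBP23 was at 4.18, 4.22 and 4.46 in boric acid and in control at 3.55 on control 1 and up to 4.24 on the others. Its change was 0.29 ± 0.21 (SE, adjusted p = 0.590 in limma), and 0.07 without control 1. UBP24, which takes part in abscisic acid responses, had a change of 0.08 ± 0.16 and UBP20 one of 0.04 ± 0.12 (SE). Neither had separate groups, and both signs turned with 1 array left out, to -0.07 for UBP24 without control 3 and to -0.04 for UBP20 without boric acid 1.

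**Figure D4:**
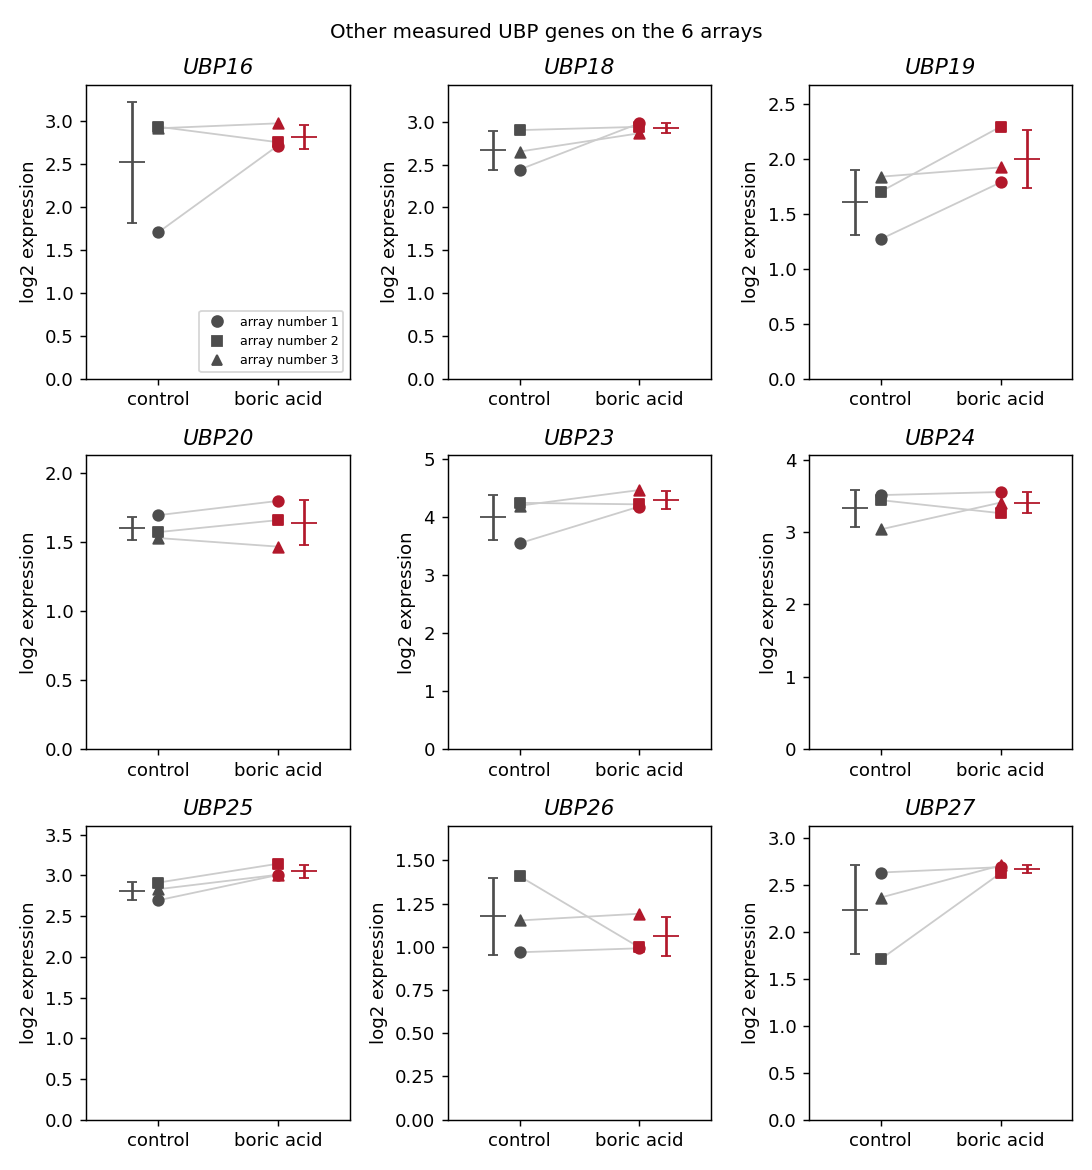
Log2 expression of the 9 other measured UBP genes (vertical axes) on the control and boric acid arrays (horizontal axes), with symbols for the array number, grey lines between arrays of the same number, and bars for the mean and SD of 3 arrays. UBP25 alone has groups that do not overlap, and the control 1 point of UBP16 lies at 1.70 against 2.94 and 2.92 for the other controls.

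Control 1 was the lowest of the 6 arrays for 6 of the 9 background genes, against 19.6% of all genes. For the other 3, UBP20, UBP24 and UBP27, it was the highest control array, as for 36.4% of all genes. It was also the lowest array for UBP15 and UBP21 and the highest control for UBP22, whose separate groups make some control array the lowest. The arrays numbered 1 also stood apart in an indirect measure of RNA quality, taken from actin alone. The difference between 3′ and 5′ probe sets of actin can grow as RNA degrades. It was 2.96 on boric acid 1 and 2.60 on control 1, against 1.23 to 1.71 on the other 4 arrays. The part of RNA quality in the UBP values was not tested, but they can be given without the arrays numbered 1. Without both of them, leaving 2 arrays per group, the changes were 1.53 for UBP22, 0.81 for UBP15 and 0.58 for UBP21. The median of the 9 background genes was then 0.12 in place of 0.26, with 7 of 9 above 0, against a median of -0.03 over all genes. None of the 9 passed the threshold (limma, lowest adjusted p = 0.180), against 809 of 13355 genes. While 1 of the 9 had an unadjusted p under 0.05, the share of all genes at that cutoff was not counted there.

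**Figure D5:**
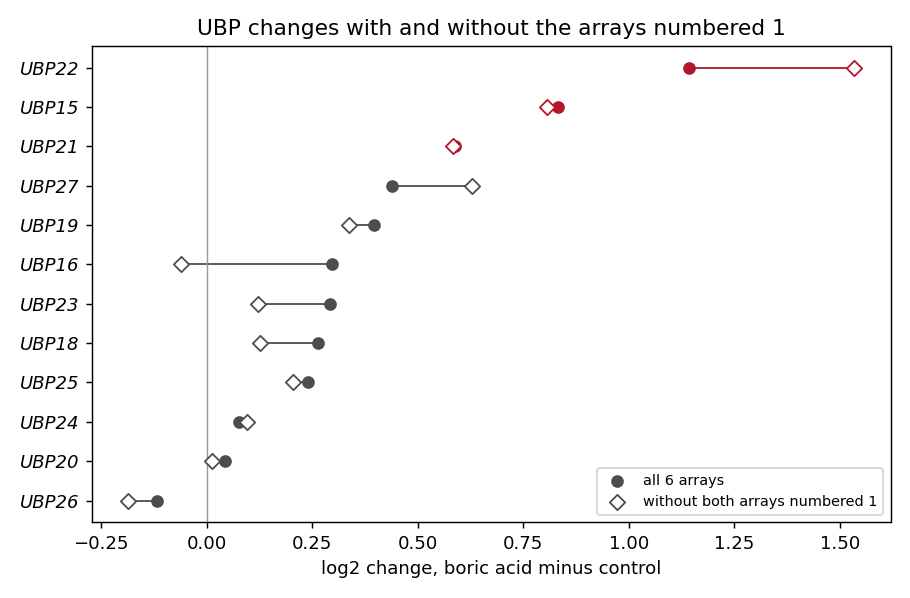
Log2 change, boric acid minus control (horizontal axis), of the 12 UBP genes (vertical axis) from all 6 arrays (filled circles) and without both arrays numbered 1 (open diamonds). UBP15, UBP21 and UBP22 are red; UBP22 moves from 1.14 to 1.53, UBP21 stays at 0.59 and 0.58, and UBP16 crosses from 0.30 to -0.06.

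Of the lists written for other deubiquitinases, ubiquitin genes and the pathways of UBP15 and UBP22, few genes had a named probe set. None of the 6 measured ones passed the threshold in limma, also with the replicate block. Without the block 0 had an unadjusted p under 0.05, against 14.9% of all genes, and 2.71% of all genes passed. With the block AT4G36860 and TCP15, both of the UBP15 growth list, had an unadjusted p under 0.05 (limma, adjusted p = 0.0906 and 0.155). The share of all genes under 0.05 unadjusted was not counted in that fit, in which 7.84% passed. The list written for partners of UBP22 in histone H2B ubiquitination and SAGA had 2 of 11 genes measured. AT3G27100 had a change of 0.13 ± 0.21 (SE, adjusted p = 0.845 in limma) and AT5G58575 one of -0.01 ± 0.19 (SE, adjusted p = 0.987 in limma). AT5G58575 was at 2.23, 2.81 and 2.39 in boric acid and 2.24, 2.66 and 2.57 in control, so its groups overlapped.

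The list for the growth pathway of UBP15 had 2 of 8 genes measured, and DA1 was not among them. TCP15, a transcription factor of organ growth, was at 0.87, 1.11 and 1.36 in boric acid and 0.69, 0.77 and 0.90 in control. The groups overlapped narrowly, with a change of 0.32 ± 0.15 (SE, adjusted p = 0.351 in limma). The locus AT4G36860 had differences of -0.39, -0.38 and -0.34 in the pairs numbered 1, 2 and 3, with a change of -0.37 ± 0.20 (SE, adjusted p = 0.448 in limma, and 0.0906 with the replicate block). Of 18 other deubiquitinases 2 were measured, of which AT3G57810 had the larger change, 0.22 ± 0.24 (SE, adjusted p = 0.739 in limma). No gene of the list of ubiquitin genes and activating enzymes had a named probe set.

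UBP15 lies on chromosome 1 and UBP21 and UBP22 on chromosome 5 of the TAIR10.1 assembly. RefSeq lists 3 transcripts for UBP15 and 2 each for the others, and which of them a probe set reads was not analysed here. Of the 6 protein-coding genes directly beside them, 3 had a named probe set. All 3 are given, though they were named after their values were seen. AT5G46730, beside UBP21, had a change of -0.02 ± 0.15 (SE, adjusted p = 0.977 in limma). On the sides of UBP22, AT5G10780 had one of -0.11 ± 0.15 (SE, adjusted p = 0.817 in limma) and AT5G10800 was near background in both groups, at 0.14 in boric acid and 0.12 in control.

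The genes with the most similar pattern were found by Pearson's r over the 6 arrays among 10774 genes whose mean exceeds the negative controls. The correlations describe points that share arrays and treatment groups. For UBP22 the nearest was AILP1 (r = 0.994), whose change of 1.07 was also close in size, followed by AT5G66120 (r = 0.992) and AT3G29330 (r = 0.989). For UBP21 they were AT1G72700 (r = 0.997), AT5G65990 (r = 0.994) and AT3G53980 (r = 0.993), with changes of 0.91, 1.90 and 2.39, all larger than that of UBP21. For UBP15 they were AT5G04670 (r = 0.993), AT1G26620 (r = 0.983) and AT1G01910 (r = 0.979), with changes of 0.66, 0.75 and 0.33. These r are the highest among 10774 genes over 6 points. The group difference on which UBP15, UBP21 and UBP22 were chosen also enters them. No other UBP gene was among the nearest genes listed, and with so many genes compared nothing is read from that.

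The labelled tissue could not be checked here, because none of the 12 root marker genes listed had a named probe set. Of 7 green tissue markers 3 were measured, LHCB4.1, LHCB4.2 and PSBY, and all 3 were above the negative controls on average. Their summed signal, as log2, lay between 4.15 and 4.87 in boric acid and between 4.57 and 5.36 in control, so the groups overlapped. By gene, LHCB4.1 had a change of -0.22 ± 0.27, LHCB4.2 of -0.99 ± 0.33 and PSBY of -0.63 ± 0.24 (SE). The groups of PSBY did not overlap, with boric acid lower, as for 1320 of 13355 genes. They nearly touched, at 2.66 on boric acid 1 and 2.67 on control 1. In limma LHCB4.2 and PSBY had an unadjusted p under 0.05, as had 14.9% of all genes, and none of the 3 an adjusted one. Their part in the UBP values was not tested.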

How the data were processed

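The authors deposited log2 expression values per probe set for 6 Affymetrix ATH1 arrays, made with RMA per the submitters' processing notes, which give no version or parameters. They were taken as log2, the scale RMA gives. Of 22810 probe sets, 64 controls were set aside and 22746 tested. Through the array's probe table and RefSeq genes of TAIR10.1, 13513 probe sets had a single gene, 503 several and 8730 none. Where several probe sets read a gene (147 genes), the brightest on average stood for it, leaving 13355 genes. The other 15 of 27 UBP symbols had no named probe set and were not analysed here. Arrays have no depth, and their number limits the precision.

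Groups were compared in limma 3.58.1 (R 4.3.3) with lmFit and eBayes, two-sided, with Benjamini-Hochberg adjustment over all probe sets. The fit without the block was run on simulated data with independent noise on each array. That run does not cover deviations shared by same-numbered arrays. The members and gene lists were chosen with earlier results of these data known. Genes named are all measured UBP genes, list members past the threshold or else the 1 with the largest change, and the 3 genes most correlated with each member. AT5G58575, TCP15, neighbouring genes and green tissue markers were named after their values were seen.

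Same-numbered arrays deviated together from their group means (correlations 0.608, 0.231 and 0.618 over probe sets, against -0.619 to 0.284 for other pairs), so the numbers were treated as pairs in a block fit. Alternatives were that block, each array left out, quantile normalization, a variance trend, a filter on low values, every probe set counted, and, chosen after seeing the data, leaving out both arrays numbered 1.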

Additional observations from a re-analysis of the deposited data

How the results depend on the processing

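The changes of UBP15, UBP21 and UBP22 moved by less than the pooled SD of the 2 groups, 0.30, 0.08 and 0.40, under all 11 alternatives. For UBP22 control 1 itself widens that SD. Their direction was kept too, but with separate groups it could not turn when arrays were left out. The block, the variance trend and the filter leave each change as it is. For UBP15 and UBP22 some moves exceeded the SD of the tighter group. None of the 9 other UBP genes passed the threshold of limma's adjusted p under any alternative, nor did any of the 6 list members, for which every probe set counted was not run. The lowest adjusted p of the 9 was 0.153, that of UBP27 without control 1. The replicate block raised the count of all genes past the threshold from 362 to 1047 and changed no other call by adjusted p given here. Leaving out 1 array gave counts between 36, without boric acid 2, and 573, without control 1. Without both arrays numbered 1 the count was 809. With so many calls hanging on single arrays, a UBP gene that misses the threshold is not shown to be unchanged, and the cause of these shifts was not tested.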
